A study of Mus musculus with 8 samples.

Results

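Imprinted genes are transcribed mainly from the allele inherited from 1 parent, a state set by DNA methylation laid down in the germ line. At some of these loci the silent allele also carries H3K27me3, the histone mark written by Polycomb repressive complex 2. Outside the Snrpn, Dlk1-Dio3 and distal chromosome 7 domains, 10 such genes were examined here, out of 34614 annotated protein-coding and lncRNA genes: Igf2r, Slc22a2, Slc22a3, Grb10, Gnas, Peg3, Plagl1, Mest, Nnat and Peg10. They were taken by name, with no threshold on a measured value. The first 4 are known to be expressed from the maternal allele in at least some tissues, and Peg3, Plagl1, Mest, Nnat and Peg10 from the paternal allele. Grb10 uses the paternal allele in neurons, and Gnas makes several proteins from promoters of unlike parental origin.

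The mark was mapped with ChIP-seq, which sequences the DNA bound to immunoprecipitated chromatin, in neural stem cell lines grown from E14.5 female embryos of a mixed C57BL/6, 129 and Castaneus background. Smchd1, which encodes a chromatin protein of the inactive X and of several imprinted clusters, was deleted on both alleles in the del/del cells, and the del/fl cells carried 1 deleted and 1 conditional allele. Each established line had been divided between the genotypes, but the labels do not tie replicate numbers to lines. Cre was brought into the del/del cells by the retrovirus MSCV-Cre-puro, with puromycin from 24 h and harvest 7 days after transduction, while del/fl cells were left untransduced, so deletion cannot be told apart from transduction and selection. Cells of both genotypes carried the Xist deltaA allele on a maternal 129 X and a Castaneus paternal X. Each genotype had 2 libraries, and the 4 peak lists held 32971 and 39982 peaks in del/del cells, against 36934 and 45566 in del/fl cells, from 14064030 and 12819919 ChIP tags in del/del cells, against 13288499 and 11793402 in del/fl cells. The lists combine both parental alleles, so a mark on 1 allele cannot be told apart from a mark on both. Nothing in the labels states that the libraries came from separate embryos, and the spread between libraries may therefore be technical. No expression was measured in these lists. As a check of the cell label, 1 of 11 neural stem cell marker genes had a peak in every library, as did 5 of 6 neuron markers, 1 of 5 microglia and blood markers, 1 of 4 endothelial and mural markers and 1 of 5 fibroblast markers. The neuron list was thus the widely marked one. The neural stem cell list, like the other 3, had 1 such gene, so these counts do not single out the labelled cell type. The neural stem cell genes had the lowest mean cover of these lists in every library. It was 0.277% and 0.818% in del/del cells, against 0.251% and 0.790% in del/fl cells. For microglia and blood markers it was 1.47% and 1.47% in del/del cells, against 0.636% and 5.94% in del/fl cells. For endothelial and mural markers it was 1.35% and 3.55%, against 1.13% and 4.43%. For fibroblast markers it was 2.82% and 3.04%, against 3.89% and 2.97%. These means were not tested.

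For each gene the peaks over its span and within 2.5 kb of both annotated ends were taken (mm10), and the percent of that window lying under peaks is called its cover. Grb10, Slc22a3 and Gnas had peaks in all 4 libraries, Slc22a2 and Peg3 had weak peaks in 1 library each, and Igf2r, Plagl1, Mest, Nnat and Peg10 had none. For comparison, 15.7% of the 20665 autosomal protein-coding genes had a peak in every library and 67.5% had none in any. The genotypes were separated at Grb10 alone, where both del/del libraries had more cover than both del/fl libraries. Among the 10254 autosomal genes with a peak in any library, 6.69% had both del/del libraries above both del/fl libraries and 15.4% had both below. No member was gained, with peaks in every del/del library and no del/fl library, or lost, the converse, against 1.88% and 2.44% of those autosomal genes.

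**Figure D1:**
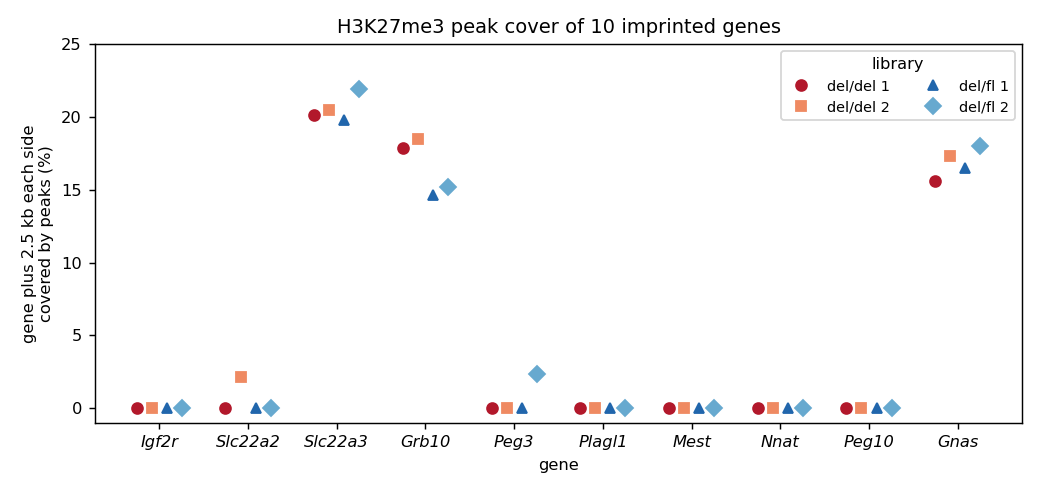
Percent of each gene plus 2.5 kb at both ends lying under H3K27me3 peaks (vertical axis), with 1 point per library: del/del 1 and 2, then del/fl 1 and 2. Grb10, Slc22a3 and Gnas lie between 14.6% and 21.9% in every library, and the del/del points stand above the del/fl points at Grb10.

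The promoters of the marked and unmarked genes are shown first, because covered and uncovered ones both spanned low and high CpG counts. Polycomb is known to favour CpG-rich promoters of genes that are not transcribed. Sequences are from RefSeq (GRCm38.p6, the same build as mm10) and run from 250 bases before to 50 bases after a transcription start, 5′ to 3′ on the gene's strand, and 9 of the 10 genes, all but Peg10, were matched, with 15 promoters in all. Capitals mark CpG dinucleotides. The promoter of Grb10 at its annotated 5′ end (chr11:12037371-12037670, minus strand) holds 45 CpGs and was covered in every library, as was that of Slc22a3 (chr17:12507655-12507954, minus strand), with 5. Of the Gnas promoters, the most upstream (chr2:174284070-174284369, plus strand) has 16 and was covered in 3 libraries, and the most downstream (chr2:174329756-174330055, plus strand), 45.7 kb further on, has 40 and was covered in none. The promoter of Plagl1 (chr10:13090582-13090881, plus strand) has 26 and is shown as an example of a paternally expressed gene without the mark.
Grb10, marked: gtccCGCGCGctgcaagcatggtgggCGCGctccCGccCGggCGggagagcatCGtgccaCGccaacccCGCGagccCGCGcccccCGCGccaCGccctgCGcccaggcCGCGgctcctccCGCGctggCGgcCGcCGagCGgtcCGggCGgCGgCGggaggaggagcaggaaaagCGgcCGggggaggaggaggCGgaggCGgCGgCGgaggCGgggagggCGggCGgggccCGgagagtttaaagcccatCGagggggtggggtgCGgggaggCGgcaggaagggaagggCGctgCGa
Slc22a3, marked: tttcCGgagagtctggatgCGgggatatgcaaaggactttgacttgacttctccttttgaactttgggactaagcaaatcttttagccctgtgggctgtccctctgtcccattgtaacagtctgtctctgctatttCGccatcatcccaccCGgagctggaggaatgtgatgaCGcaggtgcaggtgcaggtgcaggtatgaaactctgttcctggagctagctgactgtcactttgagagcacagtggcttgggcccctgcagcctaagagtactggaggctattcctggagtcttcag
Gnas, upstream, marked: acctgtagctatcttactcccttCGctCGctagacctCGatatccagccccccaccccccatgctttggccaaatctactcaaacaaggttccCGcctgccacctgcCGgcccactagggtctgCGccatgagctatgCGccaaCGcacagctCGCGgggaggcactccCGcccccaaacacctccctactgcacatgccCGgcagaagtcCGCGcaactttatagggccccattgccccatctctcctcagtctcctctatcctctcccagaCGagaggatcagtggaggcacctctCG
Gnas, downstream, unmarked: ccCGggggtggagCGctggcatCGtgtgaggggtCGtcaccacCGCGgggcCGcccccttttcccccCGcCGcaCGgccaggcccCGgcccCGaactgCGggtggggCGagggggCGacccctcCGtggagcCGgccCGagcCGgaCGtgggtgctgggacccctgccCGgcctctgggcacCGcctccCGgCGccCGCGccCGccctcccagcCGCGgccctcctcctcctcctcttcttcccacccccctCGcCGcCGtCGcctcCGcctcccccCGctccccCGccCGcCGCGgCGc
Plagl1, unmarked: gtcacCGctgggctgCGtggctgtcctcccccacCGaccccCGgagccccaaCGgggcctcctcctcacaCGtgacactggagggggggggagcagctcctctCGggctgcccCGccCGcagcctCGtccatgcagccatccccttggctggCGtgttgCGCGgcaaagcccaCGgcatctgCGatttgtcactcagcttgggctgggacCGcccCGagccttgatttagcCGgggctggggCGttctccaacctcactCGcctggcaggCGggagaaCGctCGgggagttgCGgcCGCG

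Of the 15 promoters, 3 were covered in all libraries, 1 in 3 libraries and 11 in none. Over 31396 autosomal promoters the median was 7 CpGs, and 4.92% were covered in all 4 libraries. Of those with at least 20 CpGs the share was 6.68%, and of the others 4.27%. The CpG count of the Grb10 promoter was above 98.0% of all autosomal promoters, that of the unmarked downstream Gnas promoter above 95.95%, that of the unmarked Igf2r promoter, with 34 CpGs, above 92.02%, and that of the marked Slc22a3 promoter above 37.6%. The other Grb10 promoter in the table starts 9.46 kb downstream, holds 9 CpGs and was fully covered in every library. The hexamer TGCCGC, bound when methylated by ZFP57, a zinc finger protein that keeps the methylation of imprinted genes, was searched on both strands and was the only motif searched. It occurred in 11.6% of all autosomal promoters and in 6 of the 15, in Plagl1, Nnat, Slc22a2, the 5′ promoter of Grb10 and a pair of overlapping Mest windows. Marked and unmarked promoters were both among them.

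**Figure D2:**
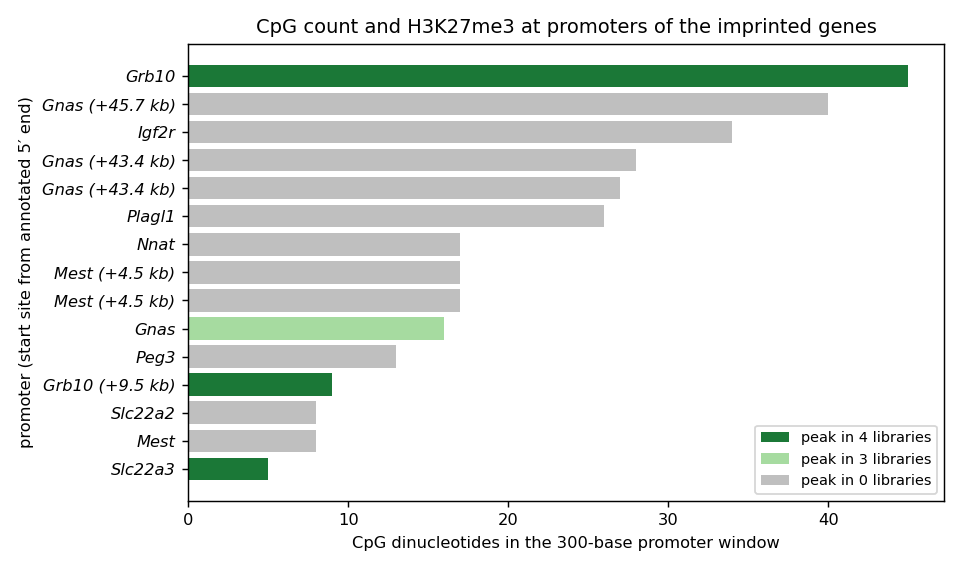
CpG dinucleotides (horizontal axis) in each RefSeq promoter window of the imprinted genes, coloured by the number of libraries with a peak over it; a distance in brackets gives a start site downstream of the annotated 5′ end. Covered promoters lie at both ends of the range, at 45 CpGs (Grb10) and at 5 (Slc22a3), and Igf2r and the downstream Gnas promoters are uncovered despite 27 to 40 CpGs.

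Grb10, on chromosome 11 from 11930499 to 12037428, encodes an adaptor protein that restrains insulin and insulin-like growth factor signalling and is transcribed from the minus strand. Its cover was 17.9% and 18.5% in the del/del libraries, against 14.6% and 15.2% in the del/fl libraries. Both del/del values were the higher ones and the genotypes did not overlap. The means were 18.2% ± 0.442 in del/del cells, against 14.9% ± 0.382 in del/fl cells (SD, n = 2 each), a difference of 3.30 percentage points. By exact permutation, two-sided, p was 0.3333, the smallest value that 2 libraries against 2 allow. limma, fitted to all 11341 genes with a peak in any library and sharing variances among them, gave a standard error of 2.43 points, a 95% interval of -3.93 to 10.5 points and an adjusted p of 0.697, so the difference was not called. The separation was lost with peaks of −log10 q of at least 5, where the genotypes overlapped, and in windows of 2.5 kb to each side of both ends, where the difference was 0.

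The Grb10 mark lay over its 5′ part and was made of a domain common to all libraries and a downstream shoulder that differed in extent. The peak over the 5′ end was 16.6 and 26.7 kb long in the del/del libraries and 16.3 and 16.2 kb long in the del/fl libraries, and in del/del replicate 2 it took in most of the shoulder, running on to 17.1 kb downstream. It covered both Grb10 promoters in each library and began at -5.84 and -9.59 kb from the annotated 5′ end in del/del cells, against -5.69 and -5.43 kb in del/fl cells, negative values lying upstream. In the first 11 kb of the gene and 2.5 kb before it, cover was 98.2% and 100% in del/del cells, against 97.1% and 98.5% in del/fl cells. From 11 to 20 kb downstream of the 5′ end, 6.49 and 7.22 kb lay under peaks in del/del cells, against 3.27 and 3.49 kb in del/fl cells. This stretch was picked out after its values were seen and was not tested. Where del/del replicate 1 had a peak of 6.49 kb there, the del/fl libraries had 3 separate short peaks each. In all, 1.296 kb of the window was covered in the del/del libraries, both of them, while bare in the del/fl ones, and 0 kb in the opposite case. Covered in every library were 14.7 of the 22.2 kb covered in any, which was 73.3% and 70.8% of the covered length in del/del cells, against 89.6% and 86.4% in del/fl cells.

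The pileup is the stacked-tag signal that the peak caller gives for a whole peak. Its values are not all whole numbers, so it is not a count of tags at 1 position. For the long peak it was 13.1 and 11.9 in del/del cells, against 12.98 and 12.53 in del/fl cells. Per 1000000 ChIP tags it was 0.934 and 0.929 in del/del cells, against 0.977 and 1.06 in del/fl cells. These pileups are the authors' and were not tested. Where the shoulder had peaks of its own, pileups were 9.12 for the 6.49-kb peak in del/del replicate 1, 6.88 to 7.79 in del/fl replicate 1 and 6.39 to 7.12 in del/fl replicate 2. In del/del replicate 2 the long peak's pileup of 11.9 is given for the 5′ end and the shoulder together. The shoulder's own pileup there is thus not known, and 11.9 is not for the same extent as in the other libraries. The long peak exceeded 98.7% and 99.6% of autosomal peaks in length in the del/del lists, and 98.6% and 98.9% in the del/fl lists.

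**Figure D3:**
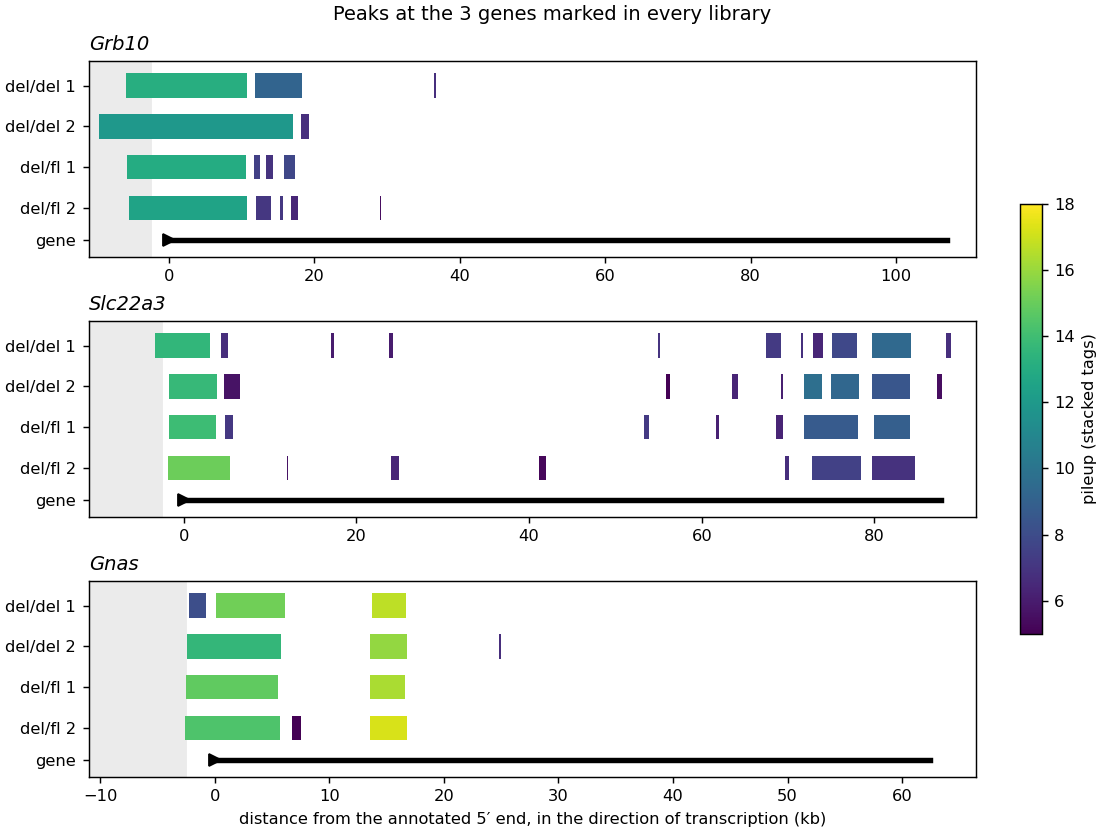
Peaks (boxes, coloured by pileup) in each library at Grb10, Slc22a3 and Gnas, against the distance from the annotated 5′ end in kb; the black bar is the gene, drawn in the direction of transcription, and the grey area lies beyond the 2.5-kb flank. The shoulder from 11 to 20 kb of Grb10 is more filled in del/del, while the Gnas blocks sit at the same places in all libraries.

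Slc22a3, on chromosome 17 from 12419972 to 12507704, encodes an organic cation transporter. With Slc22a2 and Igf2r it belongs to the cluster that the paternal noncoding RNA Airn silences, the transporters in placenta. It had the most cover of the 10 genes on average, with 20.2% and 20.5% in del/del cells, against 19.8% and 21.9% in del/fl cells. The genotypes overlapped, with both del/del values between the del/fl values. Means were 20.3% ± 0.241 in del/del, against 20.9% ± 1.501 in del/fl (SD, n = 2 each), and the difference was -0.546 points (limma, 95% interval -8.81 to 7.72, adjusted p = 0.973). Its sign turned without del/fl replicate 2 (0.515 points), which was not called. It also turned in windows of 2.5 kb to each side of both ends, where cover was 55.2% and 48.1% in del/del libraries, against 42.2% and 43.7% in del/fl libraries, and the genotypes did not overlap (8.73 points, limma adjusted p = 0.624). Its mark formed a promoter block and a separate block near the 3′ end, with little between them.

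The peak with the highest pileup at Slc22a3 lay in the promoter block. It was 6.39 and 5.49 kb long in del/del cells, against 5.44 and 7.24 kb in del/fl cells, with pileups of 13.6 and 13.7 in del/del cells, against 13.9 and 15.1 in del/fl cells. A stretch of 4.71 kb, from -1.65 to 3.06 kb of the 5′ end, was covered in all libraries. Between 7 and 65 kb downstream cover was 1.87% and 2.03% in del/del cells, against 1.47% and 3.48% in del/fl cells. In the 3′ part, from 65 to 85 kb, it was 53.1% and 49.2% in del/del cells, against 55.9% and 55.4% in del/fl cells. The del/del values were the lower ones there, in a stretch that was likewise chosen from the peak positions. In this part 3 runs, of 1.05, 2.88 and 4.08 kb, were covered in every library. The 4.08-kb run lay under peaks with pileups of 9.41 and 8.49 in del/del cells, against 8.89 and 6.86 in del/fl cells, lower than at the promoter in each library. No part of the gene was covered in both del/del libraries alone, and 0.907 kb was covered in both del/fl libraries alone. At the 3′ end each del/del library had a weak peak and neither del/fl library had one. That of del/del replicate 1, of 518 bp, lay past the end and overlapped Plg, the plasminogen gene, and that of del/del replicate 2, of 661 bp, lay across the end.

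Gnas, on chromosome 2 from 174284320 to 174346744, encodes the stimulatory G protein alpha subunit from its downstream promoter and other proteins, among them the secretory protein Nesp55, from upstream ones. Cover was 15.6% and 17.3% in del/del cells, against 16.5% and 17.99% in del/fl cells. The libraries of the genotypes interleaved, with del/del replicate 1 lowest and del/fl replicate 2 highest. Means were 16.5% ± 1.20 in del/del, against 17.3% ± 1.04 in del/fl (SD, n = 2 each), with a difference of -0.793 points (limma, 95% interval -8.46 to 6.87, adjusted p = 0.944; exact permutation p = 0.667). Without del/del replicate 1 the difference was 0.0593 points. In windows of 2.5 kb to each side of both ends it was -5.52 points (limma adjusted p = 0.624). Cover there was 39.2% and 49.65% in del/del cells, against 49.89% and 50% in del/fl cells. Both del/del libraries were below, del/del replicate 2 only slightly.

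The mark at Gnas was confined to 2 blocks apart from short peaks in 2 libraries. The first began at -2.25 and -2.47 kb from the annotated 5′ end in del/del cells, against -2.49 and -2.63 kb in del/fl cells, and reached 6.12 and 5.77 kb downstream of it in del/del cells, against 5.55 and 5.65 kb in del/fl cells. It was a peak of 8.24 kb in del/del replicate 2 and of 8.04 and 8.28 kb in del/fl. In del/del replicate 1 it was split into peaks of 1498 and 6041 bp, and the gap fell on the upstream promoter, which is why that promoter counted as covered in 3 libraries. The second block began 13.7 and 13.5 kb downstream in del/del and 13.5 kb downstream in both del/fl libraries. It was 2.99 and 3.23 kb long in del/del cells, against 3.10 and 3.20 kb in del/fl cells, and 2.95 kb of it was common to all libraries. Its pileup was 16.7 and 15.9 in del/del cells, against 16.4 and 17.2 in del/fl cells, the highest among the 10 genes in every library. This pileup exceeded that of 96.5% and 97.9% of autosomal peaks in the del/del lists and 96.6% and 98.1% in the del/fl lists. Per 1000000 ChIP tags it was 1.19 and 1.24 in del/del cells, against 1.23 and 1.46 in del/fl cells.

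From 20 kb to the 3′ flank Gnas had no peak in 3 libraries, and 0.209 kb was covered in del/del replicate 2. The promoters 43.4 and 45.7 kb downstream lie in this stretch. The first block also overlaps Gnasas1, the antisense transcript of the locus, and histone marks carry no strand, so its peaks belong to both annotations. Gnas was the most alike across libraries of the marked genes: 9.92 of the 12.8 kb covered in any library were covered in all. That was 94.2% and 85.0% of the covered length in del/del cells, against 89.0% and 81.8% in del/fl cells.

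**Figure D4:**
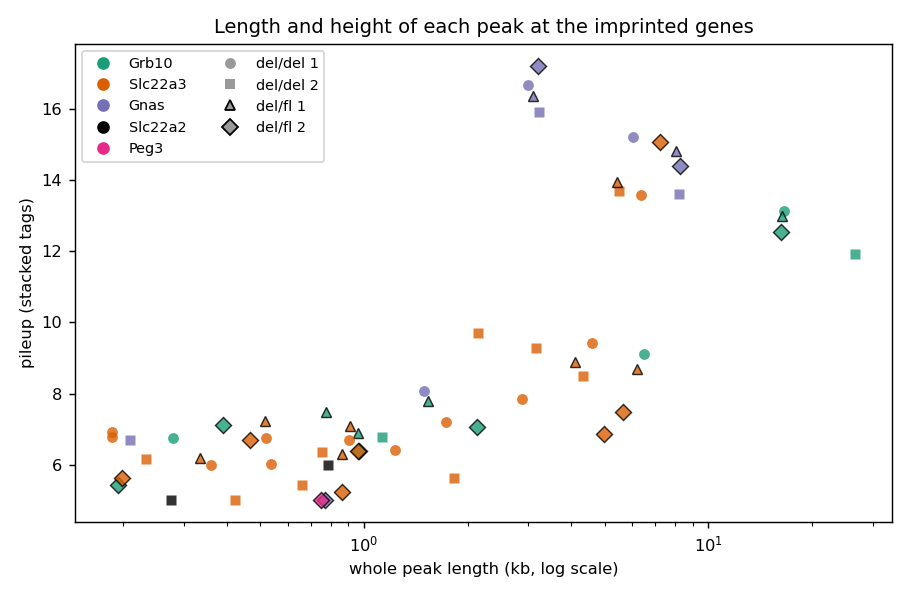
Whole length (kb, log scale) against pileup for every peak at the imprinted genes, by gene (colour) and library (symbol; del/fl symbols have a black edge). The highest pileups of Gnas, Slc22a3 and Grb10 stand above 11 in each library, while the Slc22a2 and Peg3 peaks lie at 5 to 5.99 and under 1 kb.

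Peaks found in 1 library were short and low. Slc22a2, a second organic cation transporter gene on chromosome 17 from 12584189 to 12628489, had peaks of 784 and 276 bp in del/del replicate 2 and none in del/del replicate 1 or del/fl. Their pileups were 5.99 and 5. They lay 16.9 and 19.8 kb downstream of the 5′ end, and its cover was 2.15% in that library. Peg3, which encodes a zinc finger protein of the chromosome 7 cluster with Usp29 and Zim1, spans 6703892 to 6730462. It had a peak of 752 bp in del/fl replicate 2, with its near edge at -1.365 kb from the 5′ end, and none in del/fl replicate 1 or del/del. No autosomal peak of that list had a pileup below its 5. limma gave differences of 1.08 points at Slc22a2 (95% interval -1.59 to 3.74) and of -1.19 points at Peg3 (95% interval -4.15 to 1.77), each with an adjusted p of 0.697. Slc22a2 was called when del/del replicate 1, which had no peak there, was left out (difference 2.15 points). Peg3 was called when del/fl replicate 1, which had none there, was left out (difference -2.38 points). Each call set 1 library with weak peaks against libraries without any. The same fits called many other genes, so neither call is particular to its gene. Replicate 2 had the longer list in both genotypes, with 26338 autosomal peaks in del/del replicate 2 and 17113 in del/del replicate 1, against 26647 in del/fl replicate 2 and 17573 in del/fl replicate 1. With the lists shortened to equal length, the Peg3 peak and the shorter Slc22a2 peak dropped out, and the 784-bp Slc22a2 peak stayed, with a cover of 1.59% in del/del replicate 2 (difference 0.795 points, limma adjusted p = 0.666). None of these 3 peaks reached a −log10 q of 5. It was 1.68 and 1.03 for the Slc22a2 peaks and 1.02 for the Peg3 peak.

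Igf2r, the receptor that clears insulin-like growth factor 2 and carries mannose 6-phosphate ligands, had no peak over its 87.3 kb or its flanks. The nearest peak lay 102 and 19.7 kb away in del/del cells, against 101 and 31.0 kb away in del/fl cells. Airn, its antisense partner, had a peak in 1 library of each genotype, of 871 bp in del/del replicate 2 and of 1249 bp in del/fl replicate 2. So within the Airn cluster the mark was present at Slc22a3 in all libraries and at Igf2r in none.

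Plagl1 (a zinc finger transcription factor, chromosome 10), Mest (a member of the alpha/beta hydrolase family, chromosome 6), Nnat (a small membrane proteolipid, chromosome 2) and Peg10 (a protein derived from a retrotransposon, chromosome 6) were free of peaks in all libraries. Of the 5 genes known for paternal expression, Peg3 was thus the only one with a peak, in 1 library. The peak nearest to Peg10 lay at about the same distance in every library, at 298 and 299 kb in del/del cells, against 299 and 298 kb in del/fl cells. For Mest the distance was 205 and 123 kb in del/del cells, against 195 and 154 kb in del/fl cells. For Plagl1 it was 341 and 29.4 kb in del/del cells, against 340 and 29.4 kb in del/fl cells, shorter in the longer list of each genotype. Nnat lay 23.0 kb from a peak in each del/del library, against 21.6 and 19.6 kb from one in del/fl. A window without a peak shows that enrichment was not called at this depth, not that the mark is absent.

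Of the 5 genes with peaks, limma called 0 in either direction at an adjusted p under 0.05, and 0 at an unadjusted p under 0.05. Over all 11341 genes fitted it also called 0.0% in either direction, while an unadjusted p under 0.05 was reached by 693 genes that were higher (6.11%) and by 256 that were lower (2.26%). The median difference of these 5 genes was -0.546 points, and that of autosomal genes with a peak in any library was -0.264 points. With 3 members marked throughout, the mean cover of the 10 genes was 5.37% and 5.85% in del/del cells, against 5.10% and 5.75% in del/fl cells, with overlapping genotypes. Intervals of several points at each marked gene leave changes of that size undetectable with 2 libraries per genotype.

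The neighbours of these genes were then examined from a list of 51 names, of which 44 were annotated. Of the 44, 18 had a peak in any library and 8 in every library. limma called 0 of them at an adjusted p under 0.05, and 0 at an unadjusted p under 0.05. The most covered neighbour was Klf14, a maternally expressed transcription factor gene of the Mest locus. Its window was 98.4% and 100% covered in del/del cells, against 100% in both del/fl libraries, by a peak of 14374 and 21254 bp in del/del cells, against 21457 and 23141 bp in del/fl cells. Mest itself, in the same imprinted region, had none. At the Peg10 locus, Calcr, the calcitonin receptor gene, had 8.25% and 9.61% cover in del/del cells, against 10.3% and 12.1% in del/fl cells. Both del/del values were below both del/fl values, and the difference of -2.23 points was not called (limma, 95% interval -8.73 to 4.26, adjusted p = 0.714). Of the 18 neighbours with a peak, Calcr was the only 1 with both below, against 15.4% of autosomal genes with a peak in any library. Both del/del values were above at 0 of them, against 6.69%. Some of the other neighbours named by their mean cover had peaks in only 1 or 2 libraries. In the del/del libraries, Mrgprh had 2.73% cover and Ppp1r9a 0.245% in replicate 1, and Cpa5 had 1.20% in replicate 2. In del/fl replicate 2, Edn3 had 4.97%, Tsga13 2.72% and Tfpi2 2.40%. Usp29, next to Peg3, had 0.325% in del/del replicate 2, against 0.311% in del/fl replicate 2. Sgce, next to Peg10, was unmarked in all libraries, as was Blcap, within which Nnat lies.

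Near Grb10, Cobl, an actin nucleator gene, had 14.1% and 12.3% cover in del/del cells, against 8.59% and 12.4% in del/fl cells, with overlapping genotypes (limma, difference 2.72 points, adjusted p = 0.714). Ikzf1, a lymphoid transcription factor gene, had 6.26% and 8.49% in del/del cells, against 4.72% and 7.59% in del/fl cells. Vwc2, a secreted regulator of bone morphogenetic proteins, had 1.71% and 3.22% in del/del cells, against 3.09% and 3.11% in del/fl cells. Ddc, which lies next to Grb10 and is imprinted in heart, had no peak. At the Igf2r locus Plg had 4.71% and 5.27% in del/del cells, against 1.29% and 10.1% in del/fl cells, and at the Plagl1 locus Phactr2 had 0.717% and 1.48% in del/del cells, against 0.653% and 1.98% in del/fl cells. Gnasas1, which shares its peaks with Gnas, had 39.3% and 44.6% cover in del/del cells, against 42.2% and 47.8% in del/fl cells. It was left out of the fit because the annotation classes it apart from lncRNA.

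**Figure D5:**
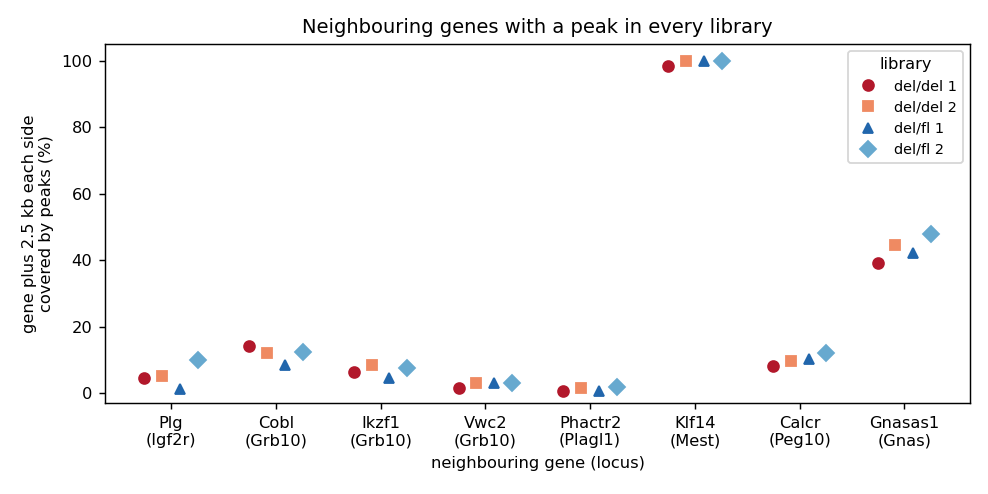
Percent of each neighbouring gene plus 2.5 kb at both ends lying under peaks (vertical axis) for the 8 neighbours with a peak in every library, 1 point per library, del/del left of del/fl; the locus stands in brackets. Klf14 is nearly or fully covered in all libraries, and the del/del points stand below the del/fl points at Calcr.

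Among 19 further imprinted genes, 9 had a peak in any library and 5 in every library. In the Snrpn, Dlk1-Dio3 and distal chromosome 7 domains, 17 of 28 listed genes had a peak in every library. The 10 genes described here had 3. These counts were not tested against each other.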

How the data were processed

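Of 8 samples, 4 were of H3K27me3 and 4 of whole-cell extract, which enters here only through the peak lists. Per the submitters' processing notes, tools included bcl2fastq, Bowtie 0.12.9 and MACS2 2.1.0.20140616, with build mm10. Per the file headers, peaks were called for each sample in broad mode against its own whole-cell extract. The headers name a q-value threshold of 0.05, keeping 1 tag per position and randomly sampling the larger dataset down to the smaller. The lowest deposited −log10 q was 1.01, which is weaker than that threshold, so not every listed peak passes it. Pileup, as deposited, is a stacked-tag signal given for a whole peak, not a count at 1 position, and is not divided by depth. The deposited fold enrichment is a ratio of pileup to local background. A peak's p-value and q-value were deposited as −log10. All of these are the authors' and only describe, rank or filter peaks.

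Cover was computed with Python 3.11.15, numpy 2.4.6 and pandas 2.3.3, and compared with limma 3.58.1 in R 4.3.3 (percent scale, variance trend, robust fitting, Benjamini-Hochberg adjustment over all genes with a peak in any library) and with exact permutation tests in scipy 1.17.1. Figures used matplotlib 3.10.9. Code was tested on simulated data. Gene spans and promoters came from RefSeq GRCm38.p6, and the gene table gives no exons. All 10 genes were named, with up to 3 neighbours per locus by mean cover. Ddc, Sgce and Blcap, outside that rule, were named after their values were seen. Members, neighbour lists and tests were chosen with earlier results of these data known. The alternatives were stricter or equally long lists, other windows and overlaps, each library left out, a replicate block, a log2 scale and other filters and fits. Equal replicate numbers are not stated to share a line, so the comparisons were unpaired. Allele-specific signal was not analysed here.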

Additional observations from a re-analysis of the deposited data

How the results depend on the processing

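Of 66 recomputed differences at single genes, 60 kept their direction and their side of the threshold, 1 was 0, 3 reversed and 2 became called. Of 95 recomputed counts of genes, 79 stayed within 1.5 times the reported count. The reported counts were 0, 1 or 3, for which this limit says little. Grb10 was never lower in del/del and was not called in any setting (differences of 0 to 4.601 points, limma adjusted p between 0.199 and 1), the 0 being the value for 2.5 kb to each side of both ends, where the shoulder is left out. With peaks of −log10 q of at least 5, 0 genes in place of 1 had both del/del libraries above both del/fl libraries, and limma called 67 of all genes higher and 35 lower, none of them among the 10. With 2.5 kb to each side of both ends, 1 gene, Slc22a3 in place of Grb10, had both del/del libraries above. In those windows 1 gene, Gnas, had both below, del/del replicate 2 only slightly. Shares over all genes are given only for the reported setting, so these counts have no background beside them. Slc22a3 reversed to 8.73 points and Gnas went to -5.52 points (limma adjusted p = 0.624 each). Slc22a3 also reversed to 0.515 points without del/fl replicate 2, and Gnas to 0.0593 points without del/del replicate 1, neither called. The values with each library left out ranged from -1.61 to 0.515 points at Slc22a3 and from -1.64 to 0.0593 points at Gnas. In the same fits the genes with del/del above numbered 1 to 2, those with del/del below 0 to 3, those gained 0 to 1 and those lost 0 to 1, and limma called 0 to 1377 of all genes higher and 0 to 1520 lower. The 2 differences that became called were Slc22a2 without del/del replicate 1 (2.15 points) and Peg3 without del/fl replicate 1 (-2.38 points). In each case the left-out library was the one of its genotype without a peak, and the same fit called many other genes. In the fits that leave out a library, the lone remaining library is assumed to vary like the others. A replicate block called 0 genes, and Grb10 then had an adjusted p of 0.653. Deviations of equally numbered libraries had a correlation of 0.187 across genes, but the labels do not tie the numbers to lines. Having 2 libraries per genotype limits every comparison.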
